A study of Mus musculus with 8 samples.

Results

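The genes described here were 10 components of protein folding in the endoplasmic reticulum (ER) and of the unfolded protein response, the signalling system that watches over it. They were chosen by name (Hspa5, Hsp90b1, Calr, Pdia4, Pdia6, Sdf2l1, Dnajb9, Herpud1, Ern1 and Xbp1), and all 10 were present among the 20170 genes of the deposited count matrix. T cells were purified by magnetic separation from mouse spleens, and single-cell RNA sequencing gave 12846 cells in 8 libraries, 2 for each of 4 groups. WT and SDHA-KO T cells were unstimulated, or stimulated with soluble anti-CD3 at 5 μg/mL and anti-CD28 at 2.5 μg/mL for 48 h. The study's general culture methods name T cells cultured alone, but give no time in culture for the unstimulated cells sequenced here. SDHA-KO mice carry loxP-flanked Sdha alleles and the CD4-Cre transgene. CD4-Cre is active in cells that have passed through a stage with CD4 expression, so a T cell that never did so is not expected to lose the floxed gene. The study's methods describe young adult mice, and the labels did not say whether the 2 libraries of a group came from separate animals, so p-values measure the spread between these libraries, which may be technical.

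The ER folds proteins that are bound for the cell surface or for secretion. Hspa5 (BiP) and Hsp90b1 (GRP94) are its abundant heat shock chaperones, Calr is a lectin chaperone that binds calcium and newly made glycoproteins, Pdia4 and Pdia6 are disulfide isomerases, and Sdf2l1 and Dnajb9 (ERdj4) work with Hspa5. Ern1 encodes the sensor IRE1, which splices the mRNA of Xbp1 into the form that encodes an active transcription factor, and Herpud1 takes part in ER-associated degradation of misfolded proteins. Activated lymphocytes are known to enlarge their ER as they begin to secrete cytokines. The 3′ tag libraries used here count all transcripts of a gene, so spliced and unspliced Xbp1 mRNA were not separated.

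Promoters of several of these genes carry the ER stress response element (ERSE), with the letters CCAAT, any 9 bases and then CCACG, or ERSE-II, with ATTGG, any 1 base and then CCACG, the sequences through which ATF6 and XBP1 are known to act. Windows from 250 bases before to 50 after each gene's start were available for all 10 genes from RefSeq (build GRCm38.p6) and were searched on both strands. ERSE was found in the windows of Hspa5, Hsp90b1, Calr and Pdia6, against 39 of 32851 windows of all genes (0.119%), and ERSE-II in that of Herpud1, against 12 windows (0.0365%). The letters TGACGTGG, another element bound by XBP1, were found in 0 of the 10 windows and in 0.676% of all windows. The core CCACG, which is part of both ERSE forms, was present in 9 of the 10 windows, all but that of Xbp1, and in 32.8% of all windows. The 5 windows with a full match are shown because these genes are followed through the report. Each is given as 200 bases of the window upstream of the gene's start, read along the gene, with the fixed letters of the element in capitals.
Hspa5, chr2:34771870-34772069, forward strand: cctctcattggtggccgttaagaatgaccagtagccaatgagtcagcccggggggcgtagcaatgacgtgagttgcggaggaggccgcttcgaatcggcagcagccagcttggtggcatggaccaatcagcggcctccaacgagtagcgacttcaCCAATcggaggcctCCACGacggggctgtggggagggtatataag
Hsp90b1, chr10:86705465-86705664, reverse strand: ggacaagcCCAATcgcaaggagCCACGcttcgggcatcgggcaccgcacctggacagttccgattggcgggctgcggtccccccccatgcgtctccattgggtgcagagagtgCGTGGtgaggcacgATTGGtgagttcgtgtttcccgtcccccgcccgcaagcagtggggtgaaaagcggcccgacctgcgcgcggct
Calr, chr8:84846952-84847151, reverse strand: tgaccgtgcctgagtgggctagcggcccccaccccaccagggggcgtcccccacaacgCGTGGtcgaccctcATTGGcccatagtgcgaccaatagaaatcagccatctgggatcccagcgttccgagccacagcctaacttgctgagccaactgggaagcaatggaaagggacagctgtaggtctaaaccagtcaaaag
Pdia6, chr12:17266369-17266568, forward strand: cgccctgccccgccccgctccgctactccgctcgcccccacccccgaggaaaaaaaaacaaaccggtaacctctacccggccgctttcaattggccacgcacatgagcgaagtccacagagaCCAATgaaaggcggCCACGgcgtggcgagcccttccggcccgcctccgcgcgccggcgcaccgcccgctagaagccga
Herpud1, chr8:94386209-94386408, forward strand: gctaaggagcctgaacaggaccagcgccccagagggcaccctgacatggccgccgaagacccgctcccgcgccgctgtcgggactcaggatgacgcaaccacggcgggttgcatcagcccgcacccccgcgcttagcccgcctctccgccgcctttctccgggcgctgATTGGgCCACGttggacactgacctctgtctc
The matches began 65 bases before the start in Hspa5, 98 in Pdia6, 162 in Calr and 52 in Herpud1. Hsp90b1 held 2 matches, 1 on each strand, and Calr held its match on the strand opposite to the gene. A match describes letters in a window and does not show that a factor was bound there.

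UMIs of each gene were summed per library over the cells that the authors assigned to the CD4 or to the CD8 class, and levels are given as CPM, UMIs relative to 1000000 UMIs of the library's class, after scaling by the trimmed mean of M values (TMM). Library totals ran from 10947009 to 51398728 UMIs. Sdha, the targeted gene, had 73.9 and 73.0 CPM in CD4 cells of stimulated WT libraries and 26.5 and 26.4 CPM in those of stimulated SDHA-KO libraries, while in the stimulated CD8 class it was at 76.1 and 74.8 CPM against 53.2 and 50.4 CPM. All 5 general T cell markers were detected in both classes of every library. Cd4 itself differed between genotypes in the CD4 class, in CPM without the TMM factor as for the marker sums below. It was at 154.7 and 154.8 in unstimulated WT and at 550 and 631 in unstimulated SDHA-KO libraries. In stimulated libraries it was at 98.2 and 101 in WT and at 158 and 152 in SDHA-KO. The 4 gamma-delta T cell markers (Trdc, Tcrg-C1, Tcrg-C2 and Tcrg-C4) summed to 253 and 259 CPM in the CD8 class of stimulated SDHA-KO libraries and to 17.6 and 20.6 CPM in stimulated WT. The 11 markers used for B and plasma cells, which have a large ER, summed to 29.2 to 416 CPM over the stimulated libraries, with the highest values in CD4 cells of stimulated WT replicate 1 and CD8 cells of stimulated SDHA-KO replicate 1. The median cell had 13809 and 13745 UMIs in stimulated WT and 25116.5 and 25465.5 in stimulated SDHA-KO, and 17.9% and 16.2% of its UMIs were mitochondrial in stimulated WT against 2.29% and 2.20% in stimulated SDHA-KO. There were 23 cell barcodes found in more than 1 library. A sum over cells cannot tell fewer cells of a type from less RNA per cell.

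Stimulation of WT T cells raised most of the ER genes. In WT CD4 cells 8 of the 10 rose and 1 fell, and in WT CD8 cells 9 rose and 1 fell (edgeR quasi-likelihood test, adjusted p under 0.05), while 66.3% of 14264 tested genes were called in CD4 and 65.7% of 13095 in CD8 cells. Of all tested genes 36.2% were called higher and 30.1% lower in CD4 cells, and 35.5% higher and 30.3% lower in CD8 cells. The median log2 fold change of the 10 genes was 1.14 in CD4 and 1.75 in CD8 cells, beside 0.08 and 0.09 for all tested genes. Without the TMM factor the median of all tested genes moved up by 0.22 in WT CD4 cells and by 0.48 in WT CD8 cells, and the same members were called in the same directions.

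The abundant chaperones rose in both classes. Hspa5 was at 125 and 122 CPM in the unstimulated WT CD4 libraries and at 381 and 327 CPM in the stimulated ones. It was at 107 and 103 CPM in unstimulated and at 517 and 503 CPM in stimulated WT CD8 cells. The libraries of the 2 states were far apart in both classes, and the log2 fold change was 1.52 ± 0.09 (SE) for CD4 and 2.28 ± 0.07 for CD8 cells. Hsp90b1 went from 85.4 and 93.9 CPM to 444 and 416 CPM in CD4 cells (log2 fold change 2.26 ± 0.09) and from 86.7 and 101 CPM to 606 and 641 CPM in CD8 cells (2.73 ± 0.09). Calr rose less, from 165 and 188 CPM to 316 and 266 CPM in CD4 cells and from 169 and 189 CPM to 431 and 402 CPM in CD8 cells. The largest adjusted p of these 3 genes was 6.8e-05 (edgeR), for Calr in CD4 cells.

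Of the disulfide isomerases, Pdia6 rose strongly and Pdia4 weakly. Pdia6 was at 55.8 and 54.2 CPM in unstimulated and at 261 and 233 CPM in stimulated WT CD4 cells, with a log2 fold change of 2.17 ± 0.08, and the change in CD8 cells was 2.84 ± 0.08. Pdia4 went from 32.4 and 34.7 CPM to 47.3 and 45.5 CPM in CD4 cells, a log2 fold change of 0.47 ± 0.09, and changed by 0.88 ± 0.11 in CD8 cells.

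Both partners of Hspa5 changed, in opposite directions. Sdf2l1 rose from 12.02 and 11.98 CPM in the unstimulated WT CD4 libraries to 60.8 and 56.0 CPM, a log2 fold change of 2.28 ± 0.14, and by 2.29 ± 0.12 in CD8 cells. Dnajb9, a cochaperone that also binds IRE1, was at 57.9 and 59.0 CPM in unstimulated and at 18.9 and 17.3 CPM in stimulated WT CD4 cells, a log2 fold change of -1.69 ± 0.19 (adjusted p = 9.9e-06). In WT CD8 cells Dnajb9 changed by -1.08 ± 0.15, but this call was lost when log values were averaged over cells in place of summed UMIs (limma, change -0.01, adjusted p = 0.81).

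The signalling genes rose with the chaperones, and the degradation factor moved little. Xbp1 went from 17.6 and 19.0 CPM to 60.3 and 65.5 CPM in WT CD4 cells and from 10.8 and 12.5 CPM to 78.0 and 90.5 CPM in WT CD8 cells, log2 fold changes of 1.78 ± 0.12 and 2.84 ± 0.14. Ern1 had few UMIs, at 6.41 and 7.34 CPM in unstimulated and 12.01 and 11.3 CPM in stimulated WT CD4 cells, with log2 fold changes of 0.76 ± 0.21 in CD4 and 0.99 ± 0.21 in CD8 cells. The CD4 call of Ern1 was lost without unstimulated WT replicate 1 (0.69, adjusted p = 0.063). Herpud1 was at 54.5 and 45.1 CPM in unstimulated and at 52.4 and 47.8 CPM in stimulated WT CD4 cells, so the libraries of the 2 states overlapped, and in CD8 cells it rose by 0.42 ± 0.10, a call lost in cells with under 10% mitochondrial UMIs (0.21, adjusted p = 0.070).

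**Figure D1:**
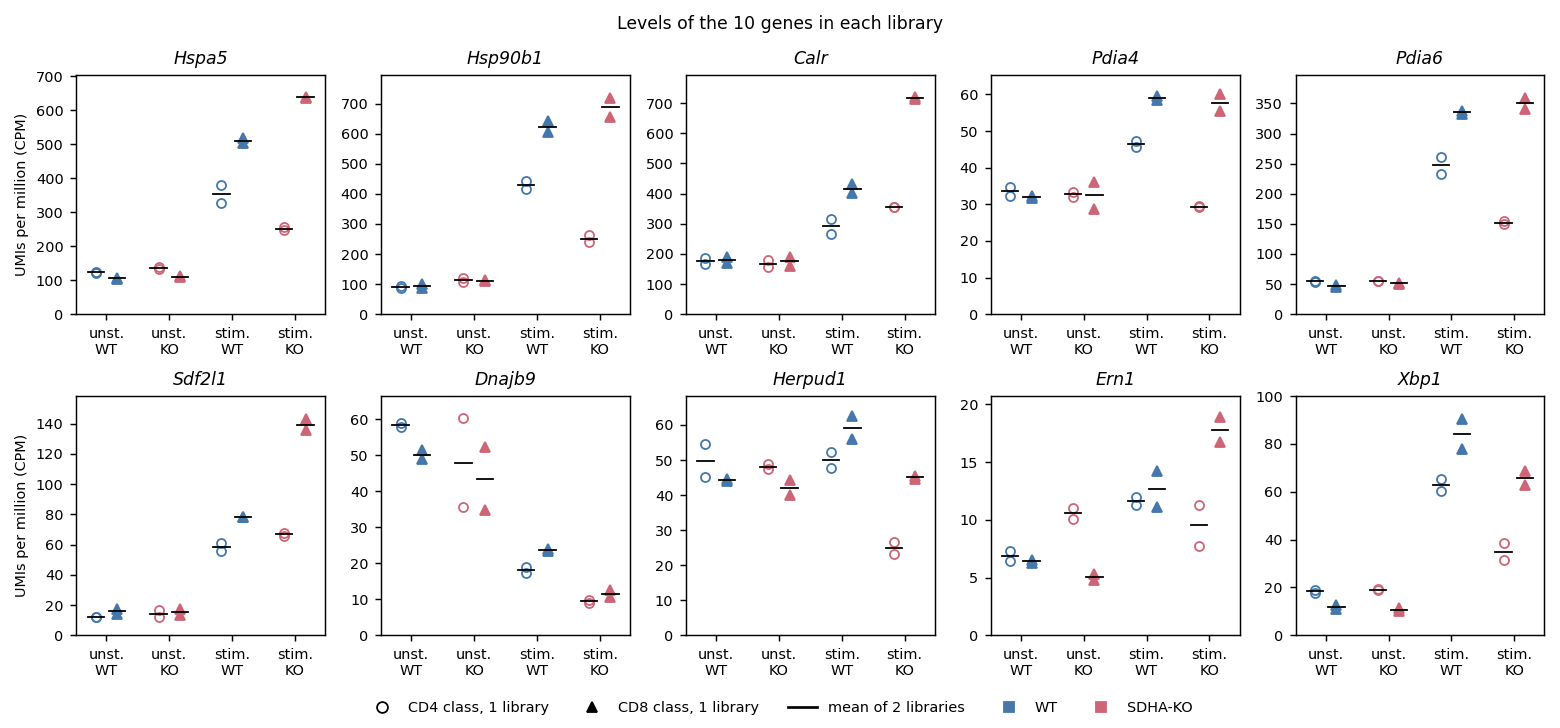
Levels of the 10 genes (CPM, linear axes from 0) in unstimulated and stimulated WT and SDHA-KO cells, with circles for the CD4 class, triangles for the CD8 class, 1 point per library and a line at the mean of 2 libraries. Stimulated libraries stand above unstimulated ones for Hspa5, Hsp90b1, Calr, Pdia6, Sdf2l1 and Xbp1 and below them for Dnajb9, and the stimulated SDHA-KO points lie below the WT points in CD4 cells for Hspa5 (247 and 256 against 381 and 327 CPM) but above them in the CD8 class (638 and 636 against 517 and 503 CPM).

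Without stimulation, no difference between SDHA-KO and WT T cells was called for these genes. In unstimulated CD4 cells 0 of the 10 were called, with 2 at an unadjusted p under 0.05, and 1.1% of all tested genes were called. In unstimulated CD8 cells 0 of 10 were called, with 1 at an unadjusted p under 0.05, against 0.947% of all tested genes. The nearest to a call was Hsp90b1 in CD4 cells, at 85.4 and 93.9 CPM in WT and 108 and 119 CPM in SDHA-KO libraries, which did not overlap (log2 fold change 0.34 ± 0.09, adjusted p = 0.10). Dnajb9 varied most between replicates, with 35.7 and 60.3 CPM in the 2 unstimulated SDHA-KO CD4 libraries.

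In stimulated CD4 cells most of the genes were lower in SDHA-KO than in WT cells. Of the 10, 7 were lower and 1 was higher, while 43.2% of all 14264 tested genes were called, 20.5% of them as lower and 22.7% as higher. The median log2 fold change of the members was -0.68, and that of all tested genes was 0.00. Hspa5 stood at 247 and 256 CPM in SDHA-KO cells against 381 and 327 CPM in WT cells, a log2 fold change of -0.49 ± 0.08 (edgeR, adjusted p = 6.0e-04). Hsp90b1 stood at 262 and 240.2 CPM against 444 and 416 CPM, a change of -0.78 ± 0.08 (adjusted p = 3.1e-05). The 2 groups did not overlap for either chaperone. The stimulated CD4 class held a different mix of clusters in the 2 genotypes, which is given with the clusters below.

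The isomerases, the signalling gene and the degradation factor showed the same direction. Pdia6 was at 261 and 233 CPM in stimulated WT and at 155 and 149 CPM in stimulated SDHA-KO CD4 cells, a change of -0.70 ± 0.07. For Pdia4, which had risen in WT cells, the stimulated SDHA-KO libraries at 29.6 and 29.2 CPM were no higher than unstimulated ones, and the change against stimulated WT was -0.66 ± 0.08. Xbp1 stood at 60.3 and 65.5 CPM in WT and 38.5 and 31.5 CPM in SDHA-KO cells (-0.85 ± 0.10). Herpud1, not called for stimulation in WT CD4 cells, was at 26.5 and 23.1 CPM in SDHA-KO against 52.4 and 47.8 CPM in WT cells, the largest fall of the 10 (-1.02 ± 0.10, adjusted p = 2.2e-05). Dnajb9 fell further, to 8.98 and 9.89 CPM from 18.9 and 17.3 CPM in WT (-0.94 ± 0.19).

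Calr was the exception among the called genes. It was at 357 and 354 CPM in stimulated SDHA-KO and at 316 and 266 CPM in stimulated WT CD4 cells, a log2 fold change of 0.29 ± 0.10 (adjusted p = 0.032). This call was lost without stimulated WT replicate 2 (0.18, adjusted p = 0.23), and without either stimulated SDHA-KO library (adjusted p = 0.059 without replicate 1 and 0.058 without replicate 2). Sdf2l1 (65.7 and 68.0 against 60.8 and 56.0 CPM) and Ern1 (11.3 and 7.73 against 12.01 and 11.3 CPM) were not called.

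The difference between genotypes in CD4 cells was also tested for a dependence on stimulation. For 7 of the 10 genes the SDHA-KO effect in stimulated cells was lower than in unstimulated cells (21.4% of all tested genes differed, 10.5% in this direction), from -0.62 ± 0.12 for Hspa5 to -1.12 ± 0.12 for Hsp90b1. Seen as the response to stimulation, Hspa5 changed by 0.90 ± 0.08 in SDHA-KO CD4 cells beside 1.52 ± 0.09 in WT, Hsp90b1 by 1.14 ± 0.08 beside 2.26 ± 0.09, and Pdia6 by 1.46 ± 0.08 beside 2.17 ± 0.08. Herpud1 fell by 0.96 ± 0.11 on the log2 scale in SDHA-KO CD4 cells. In all, 6 members rose and 2 fell with stimulation in SDHA-KO CD4 cells, beside 69.8% of all tested genes called, 36.6% as higher and 33.2% as lower. The result for Ern1 (-0.91 ± 0.28, adjusted p = 0.039) was lost under DESeq2 (adjusted p = 0.093) and when any 1 library other than stimulated SDHA-KO replicate 1 was left out (-0.62 to -1.01). That of Hspa5 was lost in cells with under 10% mitochondrial UMIs (-0.39, adjusted p = 0.076).

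In the CD8 class the genotypes differed the other way for several chaperones. Of the 10 genes, 4 were higher in stimulated SDHA-KO than in WT cells (Hspa5, Calr, Sdf2l1 and Ern1), 3 were lower (Dnajb9, Herpud1 and Xbp1) and 3 were not called, beside 50.4% of 13095 tested genes called, 26.8% as higher and 23.5% as lower. Hspa5 was at 638 and 636 CPM in SDHA-KO and at 517 and 503 CPM in WT cells (log2 fold change 0.32 ± 0.06). Calr was at 722 and 714 CPM against 431 and 402 CPM (0.79 ± 0.08), and Sdf2l1 at 136 and 143 CPM against 78.3 and 78.4 CPM (0.83 ± 0.08). Dnajb9 was lower in the CD8 class too, at 12.5 and 10.6 CPM against 23.4 and 24.0 CPM (-1.03 ± 0.14), as were Herpud1 (-0.40 ± 0.08) and Xbp1 (-0.36 ± 0.09). Ern1 was at 18.9 and 16.7 CPM against 14.2 and 11.1 CPM (0.49 ± 0.13), a call lost under DESeq2 (adjusted p = 0.084). The call of Xbp1 was lost without stimulated WT replicate 2 (-0.27, adjusted p = 0.081). That of Ern1 was lost without stimulated WT replicate 2 (0.31, adjusted p = 0.13) or without stimulated SDHA-KO replicate 1 (0.39, adjusted p = 0.078).

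A test of the difference itself gave a more positive SDHA-KO effect in the CD8 than in the CD4 class for 9 of the 10 genes in stimulated cells, from 0.48 ± 0.13 for Xbp1 to 0.90 ± 0.07 for Hsp90b1 on the log2 scale, beside 22.4% of all tested genes called and 11.9% in this direction. Dnajb9 was not called (-0.11 ± 0.14). The call of Xbp1 was lost without stimulated WT replicate 1 (0.43, adjusted p = 0.12) and without stimulated SDHA-KO replicate 2 (0.27, adjusted p = 0.078), and that of Ern1 under DESeq2 (0.81, adjusted p = 0.066). For the dependence on stimulation within the CD8 class, 3 of 10 genes were called, Calr (0.82 ± 0.13) and Sdf2l1 (0.89 ± 0.19) with a higher and Dnajb9 (-0.83 ± 0.22) with a lower SDHA-KO effect in stimulated cells, beside 23.7% of all tested genes, 13.5% higher and 10.2% lower. With stimulation 8 members rose and 1 fell in SDHA-KO CD8 cells, beside 68.2% of genes called, 37.2% as higher and 30.9% as lower. In unstimulated cells 0 of 10 differed between the classes, with 1 at an unadjusted p under 0.05, beside 0.551% of all tested genes.

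The cells of the CD8 class were not alike in the 2 genotypes, and the result turned on which of them were used. Cells with a Trdc UMI, the constant region of the delta chain of the gamma-delta receptor, made up 59.1% and 56.1% of the CD8 class in stimulated SDHA-KO libraries and 3.67% and 4.92% in stimulated WT libraries. Cells with a UMI of Cd8a or Cd8b1 and none of Cd4 or Trdc, called strict CD8 cells here, numbered 169 and 147 in stimulated SDHA-KO and 736 and 709 in stimulated WT libraries. Levels split by kind of cell carry TMM factors of their own, so they are not on the scale of the class levels above. Sdha was at 35.2 and 32.5 CPM in strict CD8 cells of SDHA-KO libraries and at 77.8 and 75.3 CPM in their Trdc cells, beside 91.1 and 88.7 CPM in strict CD8 cells of WT libraries. Trdc cells of WT libraries had Sdha at 78.9 and 86.8 CPM.

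Among strict CD8 cells Hspa5, Hsp90b1 and both disulfide isomerases were lower in SDHA-KO, as in CD4 cells. Hspa5 was at 422 and 479 CPM in strict CD8 cells of stimulated SDHA-KO libraries and at 597 and 584 CPM in those of WT, and the log2 fold change was -0.41 ± 0.08 (edgeR, adjusted p = 9.6e-04), the reverse of the whole class. Hsp90b1 was at 419 and 441 CPM against 713 and 759 CPM (-0.79 ± 0.08), and Pdia6 at 227 and 238 CPM against 384 and 397 CPM (-0.77 ± 0.08). Xbp1 was at 39.2 and 43.8 CPM against 93.4 and 107 CPM (-1.29 ± 0.11). Neither of the 2 groups overlapped the other for any of these 4 genes. In all, 7 of 10 genes were lower (Hspa5, Hsp90b1, Pdia4, Pdia6, Dnajb9, Herpud1 and Xbp1) and 0 higher in strict CD8 cells, with 49.5% of 11734 tested genes called. Calr (0.19 ± 0.09), Sdf2l1 (0.02 ± 0.09) and Ern1 (-0.38 ± 0.20) were not called. Cells at 10% or more mitochondrial UMIs made up 75.3% and 70.5% of strict CD8 cells in stimulated WT libraries. In stimulated SDHA-KO libraries they made up 13.6% and 23.1%. With only strict CD8 cells under 10%, the fall of Hspa5 was not seen, as given below.

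With strict cells in both classes, 0 of the 10 genes differed in the SDHA-KO effect between CD8 and CD4 cells (1 at an unadjusted p under 0.05), where 9 had done so with whole classes, beside 10.4% of 13737 tested genes. The difference for Hspa5 was 0.13 ± 0.08 and that for Hsp90b1 was 0.10 ± 0.09. Strict CD4 cells, with a Cd4 UMI and none of Cd8a, Cd8b1 or Trdc, gave the same 7 genes as lower, beside 41.0% of 13296 tested genes called (Hspa5 -0.52 ± 0.08, Hsp90b1 -0.88 ± 0.09). When only cells with a Trdc UMI were left out of the CD8 class, 7 genes were lower in stimulated SDHA-KO, and Calr (0.31 ± 0.09) and Sdf2l1 (0.22 ± 0.08) were higher. The share of all tested genes called in that set is not given here. It was 50.4% in the whole CD8 class and 49.5% in strict CD8 cells. Among strict CD8 cells with under 10% mitochondrial UMIs the change of Hspa5 was 0.03 ± 0.07 (adjusted p = 0.81), while Hsp90b1 (-0.64 ± 0.08), Pdia6 (-0.35 ± 0.09) and Xbp1 (-1.25 ± 0.11) were still called as lower. In all, 6 of the 10 were lower in that set and Calr was higher (0.37 ± 0.08), beside 32.8% of 11459 tested genes called. The strict cells of the 2 genotypes also differed in depth, with medians of 33462 and 30688 UMIs per cell in SDHA-KO and 13201.5 and 13329 in WT, and detection of a receptor UMI depends on depth. Its part in the result was not tested. Strict CD4 cells under the same mitochondrial limit gave Hspa5 at -0.23 ± 0.10, which was not called (adjusted p = 0.096).

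**Figure D2:**
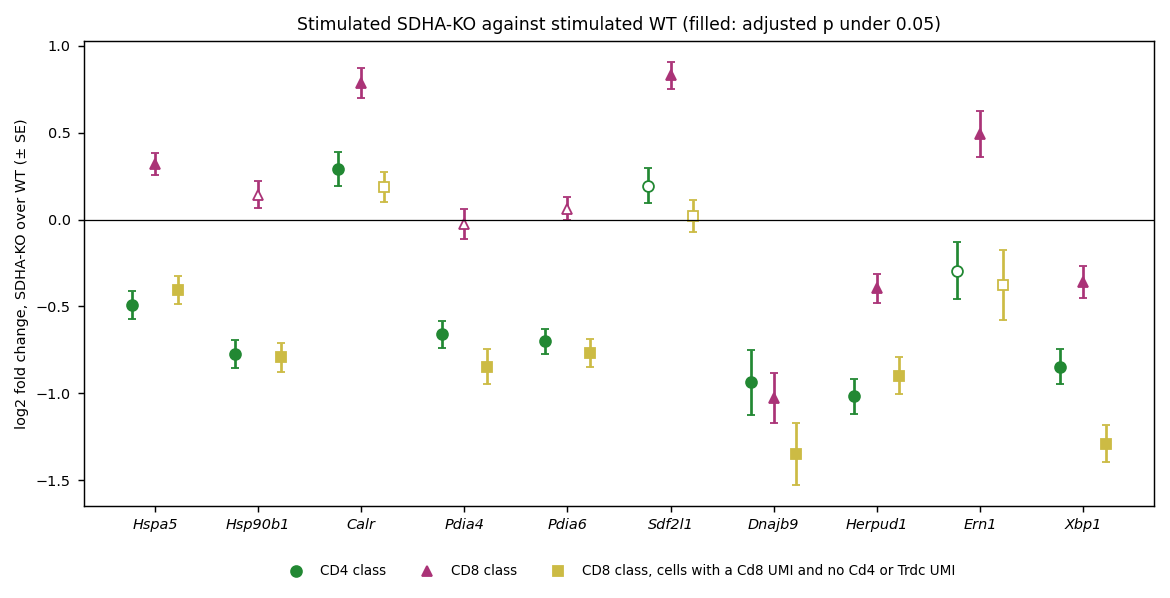
Log2 fold change of stimulated SDHA-KO over stimulated WT for each gene (y axis, ± SE of the edgeR fit, 2 libraries a group) in the CD4 class, the whole CD8 class and strict CD8 cells, with filled symbols for adjusted p under 0.05. For Hspa5, strict CD8 cells sit close to the CD4 class, at -0.41 and -0.49, while the whole CD8 class lies above both at 0.32. Not every gene follows this order. Xbp1 lies lower in strict CD8 cells than in the CD4 class, and Dnajb9 is at -1.03 in the whole CD8 class and -0.94 in the CD4 class.

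For Hspa5, Hsp90b1, Calr, Pdia6 and Sdf2l1 the Trdc cells of SDHA-KO libraries had higher levels than strict CD8 cells of either genotype and Trdc cells of WT libraries. Hspa5 was at 914 and 905 CPM in Trdc cells of stimulated SDHA-KO libraries, and Calr at 1006 and 975 CPM against 530.0 and 604 CPM in strict CD8 cells of the same libraries. Sdf2l1 was at 195 and 206 CPM against 86.4 and 103 CPM, and Ern1 at 28.3 and 24.4 CPM against 9.72 and 12.5 CPM. In WT libraries the 31 and 41 Trdc cells had Calr at 548 and 425 CPM and Hspa5 at 728 and 545 CPM, so these genes spread widely around their values in strict CD8 cells. Sdf2l1 was higher in these WT Trdc cells, at 149.5 and 103 CPM beside 91.4 and 93.0 CPM in strict CD8 cells of WT. Ern1 was at 28.0 and 23.9 CPM (27 and 33 UMIs) beside 15.9 and 12.4 CPM, close to its values in Trdc cells of SDHA-KO libraries. Dnajb9 was lower in Trdc cells of SDHA-KO libraries, at 15.5 and 12.5 CPM, than in those of WT, at 18.7 and 21.7 CPM. These are levels, with no test.

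**Figure D3:**
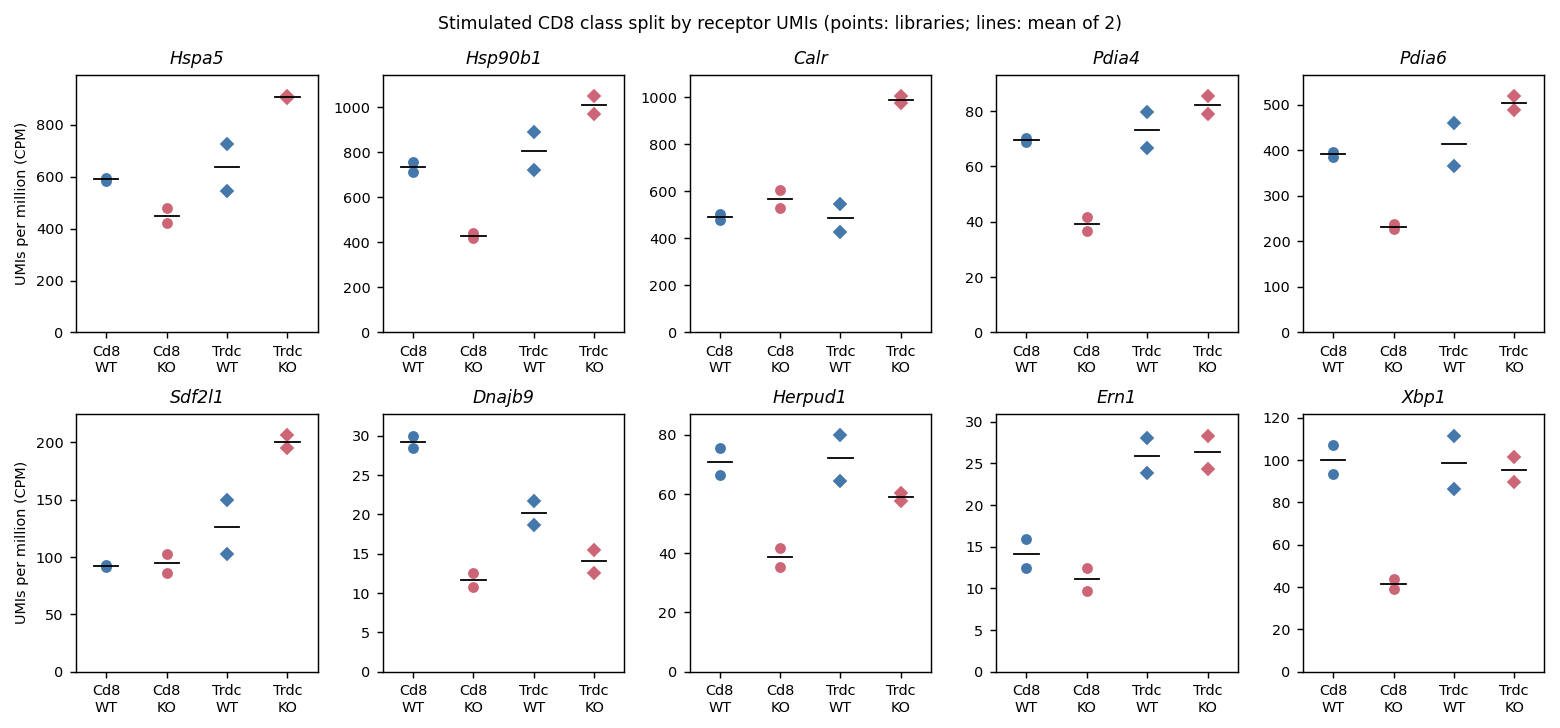
Levels of the 10 genes (CPM, linear axes from 0) in stimulated CD8-class cells split into strict CD8 cells (circles) and cells with a Trdc UMI (diamonds), in WT and SDHA-KO, with 1 point per library and a line at the mean of 2. For Hspa5 the strict SDHA-KO points (422 and 479 CPM) lie below the strict WT points, and the Trdc points of SDHA-KO (914 and 905 CPM) are the highest. TMM factors are those of these sums, so levels are not on the scale of the whole class.

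The level per cell was spread over a wide range. The 10 genes together took a median of 18.9 and 16.9 UMIs per 10000 in stimulated WT CD4 cells and 10.8 and 10.9 in stimulated SDHA-KO CD4 cells, while unstimulated CD4 libraries were between 4.95 and 5.36. The highest 10% of stimulated SDHA-KO CD4 cells still began at 39.99 and 29.98 UMIs per 10000, beside 45.1 and 41.2 in WT. In the CD8 class the medians were close, at 30.6 and 29.96 in stimulated WT and 30.6 and 29.4 in stimulated SDHA-KO. The upper end was not: the highest 10% of cells began at 63.5 and 65.2 in WT and at 103 and 96.4 in SDHA-KO.

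The deposited annotation splits the cells into numbered clusters named Naive, Tcm (central memory), Tem (effector memory) and Treg (regulatory), and each cluster with at least 50 cells in every library of both genotypes was tested on its own. In the 5 stimulated CD4 clusters that met this, 27 of 50 tests were lower and 3 were higher in SDHA-KO. Xbp1 was lower in all 5, from -0.70 in Tcm4 to -1.58 in Tem1 on the log2 scale. Hsp90b1 and Pdia6 were lower in 4 of 5, all but Tcm2, and Hspa5 was lower in Tem2 (-0.51) and Tem3 (-0.53). Calr was higher in Tcm2 (1.00), Tcm4 (0.74) and Tem1 (0.43). In Tem3, 8 of the 10 genes were lower, beside 23.0% of all genes tested there, and in Tem2 7 were, beside 24.0%. The share of all genes called was 12.9% in Tcm2, 15.1% in Tcm4 and 27.8% in Tem1, where 4, 7 and 4 members were called. Tcm clusters held 540 and 594 cells of the stimulated CD4 class in WT and 236 and 223 in SDHA-KO libraries. Tem clusters held 319 and 373 against 901 and 1061. With clusters of 1 name summed and TMM-scaled, mean Hspa5 was 506 and 497 CPM in WT and SDHA-KO Tcm cells. In Tem cells it was 318 and 260 CPM. Mean Hsp90b1 was 541 and 454 CPM in Tcm and 433 and 266 CPM in Tem cells. The part of this mix in the class result was not tested.

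In CD8 Tem2, 6 genes were higher and 1 was lower, beside 32.6% of all genes tested, with Calr at 1.05 and Hspa5 at 0.70. In CD8 Tcm4 only Calr (0.98) and Sdf2l1 (0.88) were called, beside 5.62%. Trdc, in CPM without the TMM factor, was at 143 and 139.8 in the SDHA-KO libraries of CD8 Tem2 and at 4.70 and 5.90 in its WT libraries. In CD8 Tcm4 it was at 256 and 378 against 18.1 and 20.3. In the 5 CD4 clusters the highest value was 16.0. The part of Trdc cells in the cluster results was not tested. Clusters were defined by the authors on expression, so genes that differ between genotypes may also have shaped them.

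**Figure D4:**
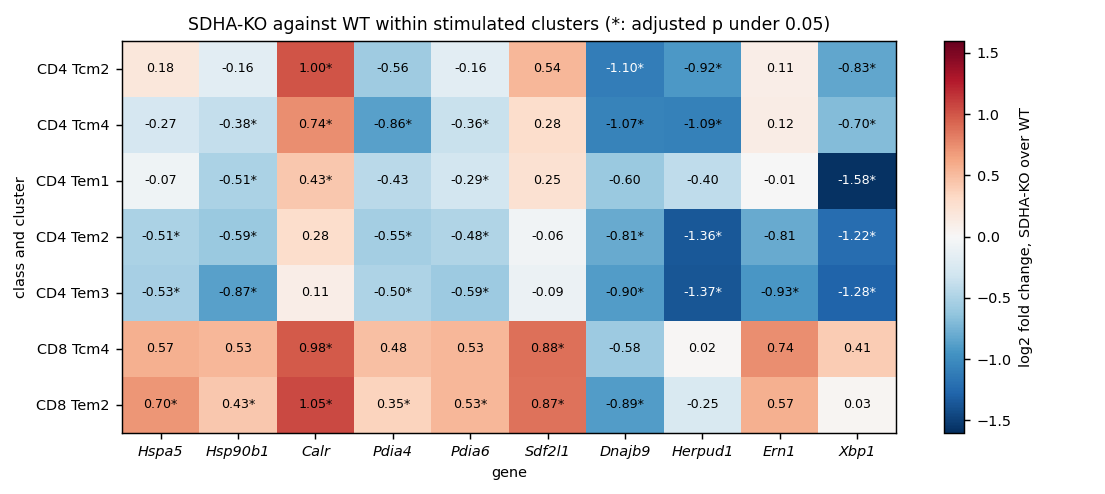
Log2 fold change of stimulated SDHA-KO over WT (colour and printed value) for the 10 genes (columns) within each of 7 stimulated clusters (rows), with asterisks for adjusted p under 0.05 in that cluster. The Xbp1 column is negative in all 5 CD4 clusters, from -0.70 to -1.58, and the 2 CD8 clusters are positive for Calr, at 0.98 and 1.05.

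Among the 9 unstimulated clusters tested, 8 had 0 called genes of the 10, with 6 tests in all at an unadjusted p under 0.05. The share of all tested genes called was 2.36%, 2.91%, 1.55% and 2.39% in CD4 Naive1 to Naive4, 0.706% in CD4 Treg, 2.41% and 2.24% in CD8 Naive1 and Naive2 and 0.496% in CD8 Tcm1. The remaining cluster was CD4 Tem1, where 3 were higher in SDHA-KO, beside 7.83% of 7148 tested genes. Ern1 was at 48.2 and 40.6 CPM (42 UMIs in each library) in SDHA-KO and at 7.35 and 5.55 CPM (5 and 4 UMIs) in WT, a log2 fold change of 2.71 ± 0.42 (edgeR, adjusted p = 2.1e-05). Hsp90b1 was at 172 and 200.1 CPM against 98.5 and 95.7 CPM (0.90 ± 0.17), and Calr at 267 and 244 CPM against 175 and 144 CPM (0.64 ± 0.15). Trdc moved with them, at 172 and 196 CPM without the TMM factor in SDHA-KO, and it had 2 and 0 UMIs in WT cells of this cluster. The 4 gamma-delta markers together were at 321 and 232 CPM on that scale against 31.0 and 36.3, and Sdha was at 82.8 and 78.7 against 97.6 and 79.8. The part of these Trdc transcripts in the result was not tested.

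Cells with many mitochondrial UMIs had higher levels of several of these genes within the same library. In stimulated WT CD4 cells, 336 and 396 cells were under 10% mitochondrial UMIs, with a median of 59713.5 and 59710.5 UMIs per cell, and 523 and 571 cells were at 10% or more, with medians of 10690 and 10633. The median mitochondrial share was 21.8% and 20.6% in the 540 and 594 Tcm cells of these libraries. It was 2.90% and 2.76% in the 319 and 373 Tem cells, so sets of cells split at 10% also differed in their clusters. The part of the clusters in these results was not tested. Levels here are CPM relative to nuclear UMIs after TMM scaling over these sums. Hspa5 was at 444 and 361 in the cells under 10% and at 693 and 653 in the others. Its log2 difference was 0.75 ± 0.06 with the library as a block. Pdia6 was at 281 and 252 against 519.6 and 477 (0.91 ± 0.07). In all, 6 of 10 were higher and Sdf2l1 was lower (-0.91 ± 0.09), beside 56.7% of 14298 tested genes called, 24.1% as higher and 32.6% as lower. The call of Hsp90b1 was lost without stimulated WT replicate 2 (0.21, adjusted p = 0.11), and that of Ern1 without either WT library (0.57 without replicate 1 and 0.41 without replicate 2).

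The choice of scaling matters here more than elsewhere. Without the TMM factor the median of all genes moved up by 1.00, so every difference is relative to that shift, and Sdf2l1 was then at 0.09 (adjusted p = 0.32). Of the 10 genes 9 were then higher and 0 lower in WT CD4 cells, beside 61.8% of tested genes called as higher. All 10 were then higher in SDHA-KO CD4, WT CD8 and SDHA-KO CD8 cells, beside 44.1%, 58.4% and 51.1% of tested genes. In stimulated SDHA-KO CD4 cells, 149 and 128 cells were at 10% or more, and 7 of 10 genes were higher in them, among them Hspa5 (1.19 ± 0.07), Hsp90b1 (1.12 ± 0.08) and Calr (0.93 ± 0.06), beside 41.7% of tested genes, 15.4% as higher. In the CD8 class 9 genes were higher in the cells at 10% or more in both genotypes, beside 56.6% of 13609 genes called in WT (25.4% as higher, 31.2% as lower) and 52.6% in SDHA-KO (22.8% as higher). Sdf2l1 was lower in WT (-0.45 ± 0.08), a result that turned to 0.40 without the factor. Among these results the calls of Ern1 (0.63) and Dnajb9 (0.52) in SDHA-KO CD4 cells were lost without stimulated SDHA-KO replicate 2, as was that of Dnajb9 (0.53) in SDHA-KO CD8 cells. Without replicate 1 of its group Herpud1 was not called in CD8 cells of WT (0.30) or SDHA-KO (0.36), Xbp1 was not called in WT CD8 cells without replicate 2 (0.23), and Ern1 was not called there without either WT library (0.38 and 0.41). Of the Trdc cells in stimulated SDHA-KO libraries 44.7% and 43.7% were at 10% or more, against 13.6% and 23.1% of strict CD8 cells, so the bins of that class also differed in their kinds of cells.

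With cells at 10% or more left out, the genotype comparison in stimulated CD4 cells kept 7 of its 8 calls, beside 32.8% of 13710 tested genes. Hspa5 then changed by -0.27 ± 0.09 (adjusted p = 0.042), less than over all cells, and Calr was not called (0.28, adjusted p = 0.056). Hsp90b1 (-0.72 ± 0.08), Xbp1 (-0.85 ± 0.11) and Herpud1 (-1.01 ± 0.11) stayed close to their values over all cells. In the whole CD8 class under the same limit, Hspa5 was at 0.59 ± 0.06, Hsp90b1 at 0.23 ± 0.07 and Pdia6 at 0.33 ± 0.07, all called as higher, with 5 members higher and 3 lower in all, beside 35.4% of 12600 tested genes. The CD4 cells left out had Hspa5 at 771 and 756 in SDHA-KO and 693 and 653 in WT. Calr was at 974 and 874 against 447 and 411, but Xbp1 at 45.4 and 49.7 against 81.3 and 88.1. The log2 difference between cells at 10% or more and the others was larger in SDHA-KO than in WT CD4 cells by 0.44 ± 0.09 for Hspa5. For Calr it was larger by 0.81 ± 0.09, for Hsp90b1 by 0.78 ± 0.10 and for Xbp1 by 0.01 ± 0.16.

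**Figure D5:**
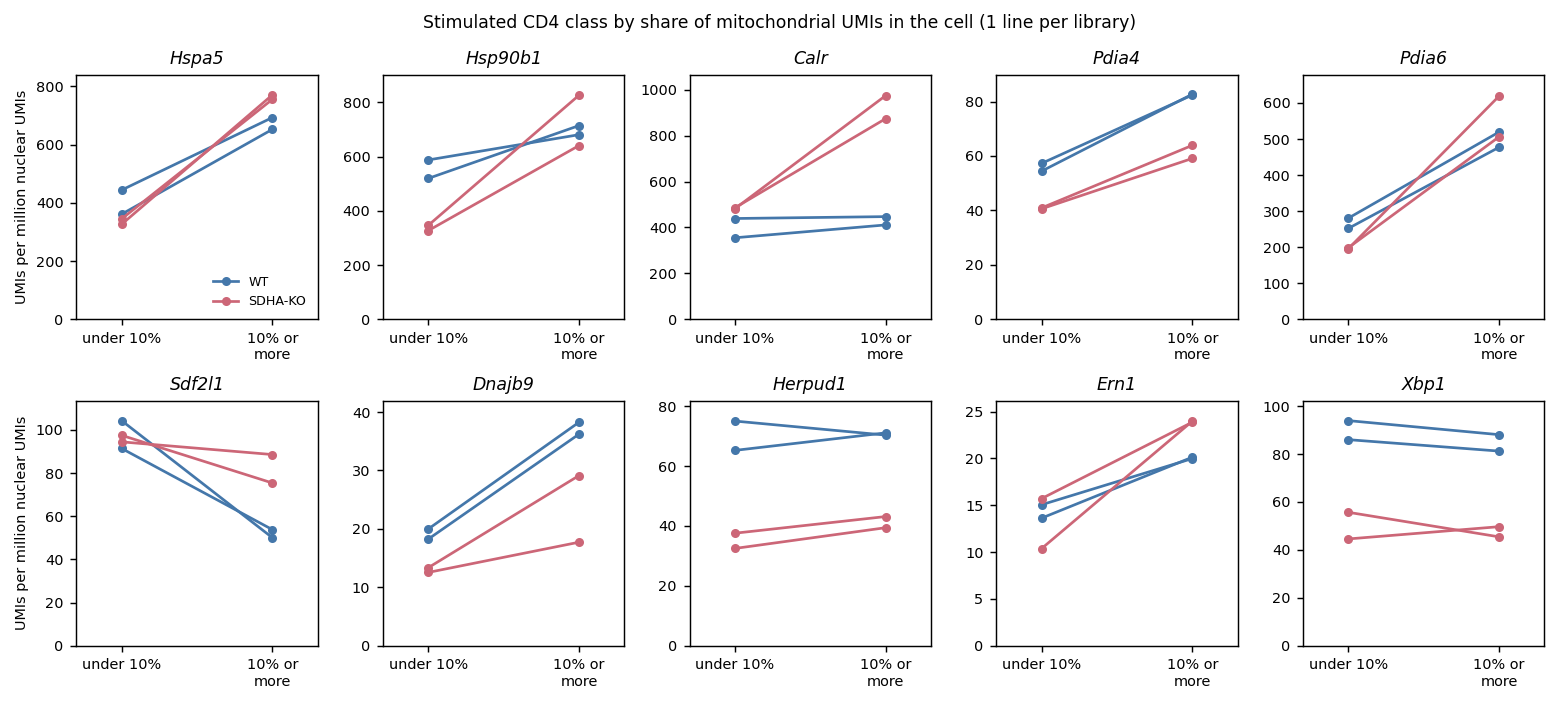
Levels of the 10 genes (CPM relative to nuclear UMIs after TMM scaling, linear axes from 0) in stimulated CD4 cells with under 10% and with 10% or more mitochondrial UMIs. There is 1 line per library, blue for WT and red for SDHA-KO. Lines rise for Hspa5 and Pdia6 in all 4 libraries and for Herpud1 and Pdia4 the WT libraries lie above the SDHA-KO libraries in either set of cells. At 10% or more, the SDHA-KO libraries lie above the WT libraries for Hspa5, Calr, Sdf2l1 and Ern1. They lie below them there for Pdia4, Dnajb9, Herpud1 and Xbp1, and the genotypes overlap for Hsp90b1 and Pdia6.

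Other genes of the pathway were counted from 8 lists written by hand. In stimulated CD4 cells, 9 of 10 genes of the PERK and CHOP arm, which adjusts translation and amino acid supply, were lower in SDHA-KO and 1 was higher. Ddit3, which encodes CHOP, was at 9.17 and 7.73 CPM in SDHA-KO against 32.7 and 37.1 CPM in WT (-2.05 ± 0.15), and Asns, asparagine synthetase, changed by -2.26 ± 0.17. In the whole CD8 class 5 of these 10 were lower and 0 higher, with Ddit3 at -2.18 ± 0.11, and in strict CD8 cells 6 were lower and 1 higher (Ddit3 -1.85 ± 0.14). Stimulation itself had raised 8 of the 10 in WT CD4 and 9 in WT CD8 cells, beside 36.2% and 35.5% of all tested genes called as higher. Among 8 other sensors and regulators, Atf6, the sensor that becomes a transcription factor after cleavage, was lower in stimulated SDHA-KO CD4 cells (-0.28 ± 0.09), 1 gene was higher and 6 were not called.

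The largest change among the genes named from these lists was in a disulfide enzyme. Ero1l, the oxidase that recharges protein disulfide isomerase, was at 68.8 and 61.7 CPM in stimulated SDHA-KO CD4 cells against 379 and 358 CPM in WT (-2.50 ± 0.08), and was lower in the CD8 class (-2.30 ± 0.13) and in strict CD8 cells (-2.54 ± 0.13). P4hb, protein disulfide isomerase itself, changed by -1.22 ± 0.08 in CD4 cells and by -0.91 ± 0.09 in strict CD8 cells. Of 17 tested genes of that list, 5 were lower and 1 was higher in CD4 cells.

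Among 18 other ER chaperones, 6 were lower and 5 higher in stimulated SDHA-KO CD4 cells. Canx, the membrane-bound relative of calreticulin, was lower (-0.35 ± 0.08), and Ppib, a prolyl isomerase of the ER, was higher (0.55 ± 0.07). In the CD8 class 10 were higher and 3 lower, with Creld2 at 1.08 ± 0.10 and Manf at 0.67 ± 0.07, but in strict CD8 cells 4 were higher and 9 lower, Manf among the lower (-0.24 ± 0.09, adjusted p = 0.033). For ER-associated degradation 7 of 24 genes were lower and 1 higher in CD4 cells, among them Sel1l (-0.77 ± 0.10) and Derl1 (-0.65 ± 0.08). In CD4 cells the translocation machinery gave 9 lower and 4 higher of 24, and N-glycosylation 6 lower and 2 higher of 15, with Magt1 (-0.48 ± 0.08) and Stt3b (-0.46 ± 0.07) among the lower. In the CD8 class degradation gave 9 higher and 5 lower, translocation 13 higher and 4 lower, and N-glycosylation 5 higher and 1 lower. Strict CD8 cells gave 6 lower and 5 higher for degradation, 9 lower and 5 higher for translocation, and 7 lower and 1 higher for N-glycosylation.

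Cytosolic chaperones, which work outside the ER, were higher in CD8 cells. Of 21 tested, 19 were higher and 0 lower in the stimulated SDHA-KO CD8 class, and 17 were higher and 0 lower in strict CD8 cells, with Hsph1 at 1.37 ± 0.09 and 0.91 ± 0.10 and the chaperonin subunit Cct3 at 0.98 ± 0.08 and 0.86 ± 0.09. In CD4 cells 8 were higher and 2 lower, and Hsp90ab1, the cytosolic relative of Hsp90b1, was among the lower (-0.55 ± 0.07). All these counts stand beside the 43.2% of genes called in CD4 cells, 50.4% in the CD8 class and 49.5% in strict CD8 cells.

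Apart from the members, 23 genes with an ERSE or ERSE-II match in their window were tested in CD4 cells, of which 7 rose and 4 fell with stimulation in WT, beside 66.3% of all tested genes called. In stimulated SDHA-KO CD4 cells 5 of them were lower and 3 higher than in WT, beside 43.2% of all tested genes called. Among the 10 genes studied here, the 5 with a match in their window had log2 changes of -1.02 (Herpud1), -0.78 (Hsp90b1), -0.70 (Pdia6), -0.49 (Hspa5) and 0.29 (Calr), and Pdia4 (-0.66) and Xbp1 (-0.85), without a match, lay within that range.

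The genes most alike in pattern were taken over 52 stimulated sums of library, class and cluster as the Pearson correlation of log2 CPM with the mean of the 10 members, among genes of at least 20 mean CPM. They were Magt1 (r = 0.93), Ssr1 (0.93), Srpr (0.92), Rpn1 (0.91) and Sec61a1 (0.91), which belong to glycosylation and to translocation into the ER. Of the members, Hsp90b1 followed the mean of the other 9 most closely (0.97) and Sdf2l1 least (0.37). The 52 sums share libraries and depth, so these values only describe.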

How the data were processed

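Single-cell RNA-seq libraries were made from WT and SDHA-KO splenic T cells after removal of dead cells. The authors deposited a matrix of UMI counts per gene and cell, not normalized, made from the reads with bcl2fastq and Cell Ranger on the mouse build mm10 as named in the submitters' processing notes (versions not given in the sources used here). The authors had already removed cells with very many detected genes, and clusters that lacked CD3 transcripts, and no further doublet caller was run here. The deposited cell table gives the percentage of mitochondrial UMIs, which the authors computed and which a recalculation from the matrix gave for all cells, together with the library, the CD4 or CD8 class and the cluster of each cell.

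UMIs were summed per library and class, and in further fits per cluster or per set of cells. Libraries were grouped by their labels. Sums were tested with edgeR 4.0.16 in R 4.3.3 (filterByExpr with a minimum count of 10 and a minimum total of 15, TMM factors, quasi-likelihood test) in 1 fit of all 8 libraries and 4 groups per class, with Benjamini-Hochberg adjustment over all tested genes and a threshold of 0.05. The difference between classes and the comparison of cells by mitochondrial share carried the library as a block. Clusters needed at least 50 cells in each library. The scripts were tested on simulated data. The relative spread between libraries estimated by edgeR was 8.73% in CD4 and 8.24% in CD8 sums, which, with 10947009 to 51398728 UMIs per library, sets the precision.

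All 10 genes are named in every comparison. Of each other list, at most the 2 largest rises and 2 largest falls among called genes of at least 20 mean CPM without overlap between groups could be named. The members and lists were chosen with earlier results of these data known. Alternatives were other scalings (no TMM factor, RLE, nuclear UMIs), no filter, DESeq2 1.42.0, limma 3.58.1 on mean log values per cell, sets of cells, a replicate block and leaving out each library. Removal of Trdc cells, alone or as strict cells with under 10% mitochondrial UMIs, was added after seeing the data. One marker gene and the alternative that used it are not reported here. Replicates were compared before use, and no pair of libraries agreed within sampling noise.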

Additional observations from a re-analysis of the deposited data

Results flagged for a closer look

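Differences between groups in the SDHA-KO effect passed edgeR's test for the following genes, on the log2 scale. Stimulated minus unstimulated CD4 cells gave -0.62 for Hspa5, -0.62 for Pdia4, -0.97 for Herpud1, -1.12 for Hsp90b1, -0.90 for Xbp1, -0.91 for Ern1 and -0.70 for Pdia6. The same difference in the CD8 class was 0.82 for Calr (adjusted p = 0.0015), 0.89 for Sdf2l1 (adjusted p = 0.0064) and -0.83 for Dnajb9 (adjusted p = 0.020), 3 of 10 genes beside 23.7% of all tested genes. In strict CD8 cells the values of Calr (0.20, adjusted p = 0.32) and Sdf2l1 (0.22, adjusted p = 0.53) were no longer called. Those of Dnajb9 and Sdf2l1 also rested on single libraries: Dnajb9 was not called without either unstimulated WT library or without unstimulated SDHA-KO replicate 2 (-0.88, -0.80 and -0.52), nor Sdf2l1 without unstimulated WT replicate 2 (0.72, adjusted p = 0.077).

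CD8 minus CD4 stimulated cells gave 0.80 for Hspa5, 0.62 for Pdia4, 0.48 for Calr, 0.61 for Herpud1, 0.90 for Hsp90b1, 0.48 for Xbp1, 0.78 for Ern1, 0.75 for Pdia6 and 0.62 for Sdf2l1. Trdc was at 109.7 and 119 CPM in the CD8 class of stimulated SDHA-KO libraries and at 6.56 and 9.45 CPM in WT, and with strict cells 0 of these 9 differences were called (1 of the 10 genes at an unadjusted p under 0.05).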

How the results depend on the processing

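Over 16 comparisons of the 10 genes, 103 values were called. Over their alternatives these kept direction and call 1417 times, lost the call 80 times and changed sign 19 times. The 57 values not called gained a call 60 times and stayed not called 874 times. The choice of cells in the CD8 class mattered most. SDHA-KO against WT in stimulated CD8 cells changed sign for Hspa5 (-0.41 in strict cells, -0.28 without Trdc cells), Ern1 (-0.38, -0.22, and -0.25 in strict cells under 10% mitochondrial UMIs) and Sdf2l1 (-0.18 in the last). CD8 minus CD4 called 0, 2 and 0 genes in strict cells, without Trdc cells and in strict cells under 10%, in place of 9. It turned to -0.027 (Calr), -0.069 (Pdia4), -0.12 (Sdf2l1), -0.0016 (Ern1) and -0.38 (Xbp1) in strict cells, to -0.092 (Xbp1) without Trdc cells, and to -0.0985 (Sdf2l1), -0.0982 (Ern1) and -0.39 (Xbp1) in strict cells under 10%. Pdia4 in stimulated against unstimulated SDHA-KO CD8 cells turned to -0.059 in strict cells and to -0.21 with the mitochondrial limit. Stimulated minus unstimulated in CD8 called 7 genes by limma, 7 in strict cells and 6 without Trdc cells, in place of 3. Without the TMM factor Sdf2l1 by mitochondrial share turned to 0.095 (WT CD4) and 0.40 (WT CD8), and unstimulated clusters gave 6 calls in place of 3. Without a filter 1 gene was called in unstimulated CD4 cells, and stimulated clusters of cells under 10% gave 22 calls in place of 39. Only 3 of the 7 clusters could be tested under that limit, and those 3 had 22 calls with all cells too. The cause of the other changes was not tested. The counts of calls in this section, also those with 1 library left out, stand without the share of all tested genes called under the same setting.

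Leaving out 1 library gave 8 to 9 calls for stimulation in WT CD4, 10 in WT CD8, 8 to 9 in SDHA-KO CD4 and 9 in SDHA-KO CD8 cells. SDHA-KO against WT gave 0 in unstimulated cells, 7 to 8 in stimulated CD4 and 5 to 7 in stimulated CD8 cells. Stimulated minus unstimulated gave 6 to 7 (CD4) and 1 to 4 (CD8), lowest without unstimulated WT replicate 2. CD8 minus CD4 gave 8 to 9 in stimulated and 0 in unstimulated cells. Clusters gave 26 to 36 (stimulated) and 2 to 4 (unstimulated). By mitochondrial share there were 5 to 8 (WT CD4), 5 to 7 (SDHA-KO CD4), 8 to 10 (WT CD8) and 8 to 9 (SDHA-KO CD8).

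Deviations of same-numbered libraries correlated between -0.08 and 0.06, and replicate numbers were not used as pairs. Sampling noise can hide a shared animal or batch in such values, so they cannot show that same-numbered libraries were unrelated. A fit with the replicate number as a block kept the count of every class comparison (8 in stimulated CD4 and 7 in stimulated CD8 cells for SDHA-KO against WT) and gave 38 calls over stimulated clusters and 3 over unstimulated ones. Ern1, with few UMIs, had the largest SE of the 10 genes for stimulation in WT (0.21 in CD4 and in CD8 cells), which limits its precision.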
